A study of Manihot esculenta with 32 samples.

Results

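A set of cassava loci stood higher in every plant tissue mean than in friable embryogenic callus, and part of it stood higher than in organized embryogenic structures as well. The set was drawn from the gene expression atlas of cultivar TME 204, in which polyadenylated RNA of 11 tissue/organ types was sequenced. Its members were chosen from the measured values, as FPKM, a fragment count divided by transcript length and library size. For each of the 32732 loci with a gene name, the 11 tissue means were put on the scale of log2(mean FPKM + 1) and sorted. A locus was kept where the largest gap between neighbouring tissues was at least 1.5, where its highest mean was at least 10 FPKM, and where the tissues above the gap were 1 of 2 sets. These were all 9 plant tissues, leaving friable embryogenic callus (FEC) and organized embryogenic structures (OES) below, or all 10 tissues other than FEC. The first set held 95 loci and the second 156, so that 251 loci were described in all, and the limit of 300 loci was not reached. Because the tissue means chose the loci, the contrast of cultures with plant tissues is given as a description without a test.

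FEC and OES were grown in tissue culture, with a labelled age of 7 weeks for FEC and 4 weeks for OES, each with 3 libraries. The methods of the study give 3 weeks for FEC on its own medium. Whether the labelled 7 weeks also count the preceding time as OES is not stated. The plants were 3 months old and gave 26 libraries: leaf, midvein, petiole, lateral bud, stem, shoot apical meristem (SAM), fibrous root and root apical meristem (RAM) with 3 each, and storage root with 2. All samples came from the same cultivar, and both cultures were kept on medium with the auxin-like compound picloram. Each meristem sample was a pool of 6 meristems, and SAM and RAM were prepared with another RNA kit and less fragmentation enzyme, so that preparation and tissue cannot be told apart for them. FEC was derived from OES by a change of basal medium. By the study's methods the FEC medium also held tyrosine and moxalactam, which are not listed for the OES medium. Medium, these additions, culture age and tissue thus cannot be told apart between the cultures.

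Somatic embryogenesis is the formation of embryo-like structures from cells of the plant body, usually under auxin. In cassava, OES are the compact structures that form first, and FEC is the loose callus of small embryogenic units that is widely used for transformation. Organs of a growing plant, in contrast, hold vessels, epidermis and photosynthetic or storage tissue, and they take up and move water through aquaporins.

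The culture libraries were not the shallowest ones. Fragments on named loci numbered 14085924 to 24123487 in FEC, 12920943 to 17402545 in OES and 4175114 to 15212032 in the plant libraries. The 251 loci together took 0.0952% to 0.102% of these fragments in FEC libraries, 0.490% to 0.584% in OES libraries and 1.26% to 3.47% in plant libraries, with a plant median of 2.18%. The 3 ranges did not overlap. Among the plant tissues, petiole libraries gave 3.12% to 3.47% of their fragments to the set, stem libraries 2.68% to 3.26%, storage root libraries 2.44% to 2.70% and leaf libraries 1.46% to 1.56%, and the lowest stem library lay below the highest of storage root and RAM. RAM libraries spread widest, with 1.26%, 2.70% and 1.90% in replicates 1, 2 and 3. In bulk samples such as these, fewer cells of a type and less RNA per cell cannot be told apart.

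**Figure D1:**
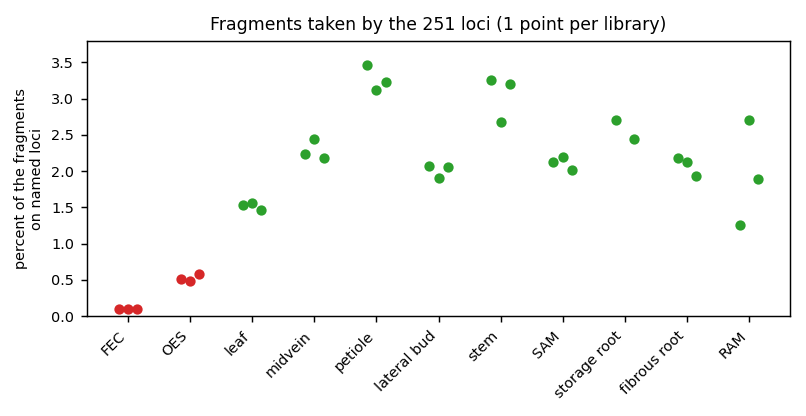
Percent of the fragments on named loci that fell on the 251 loci, with 1 point per library and cultures in red. FEC libraries lie between 0.0952% and 0.102%, OES libraries between 0.490% and 0.584%, and every plant library at 1.26% or above.

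The word silent fits part of the set. Mean FPKM was below 1 in FEC for 136 of the 251 loci, in OES for 54, and in both cultures for 50, all of which belong to the 95 loci that were high in the 9 plant tissues. All 6 culture libraries were below 1 FPKM at 43 loci. At the other extreme, 18 loci averaged 10 FPKM or more in FEC and 109 did so in OES. Most of the set was thus low in FEC rather than in both cultures, and loci under 1 FPKM are stated as such. The 2 classes differed in OES. Among the 95 loci, the median locus had a mean of 0.467 FPKM in FEC, 0.773 FPKM in OES and 35.5 FPKM over the plant tissues, and 27 of the 95 were higher in FEC than in OES. Per locus, the median level was 1.11% of the plant mean in FEC and 2.26% in OES. Among the 156 loci, the median locus had a mean of 1.22 FPKM in FEC, 12.7 FPKM in OES and 49.0 FPKM over the plant tissues. OES stood at 27.9% of the plant mean for the median locus of this class, and it was the lowest of the 10 tissues above the gap in 72 of 156. It exceeded the median of the plant tissue means in 5 of the 156. Across all 20991 named loci that reached 10 FPKM in some tissue, the medians were 13.4 FPKM in FEC and 13.7 FPKM in OES, close to those of the plant tissues (13.5 to 16.0 FPKM).

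**Figure D2:**
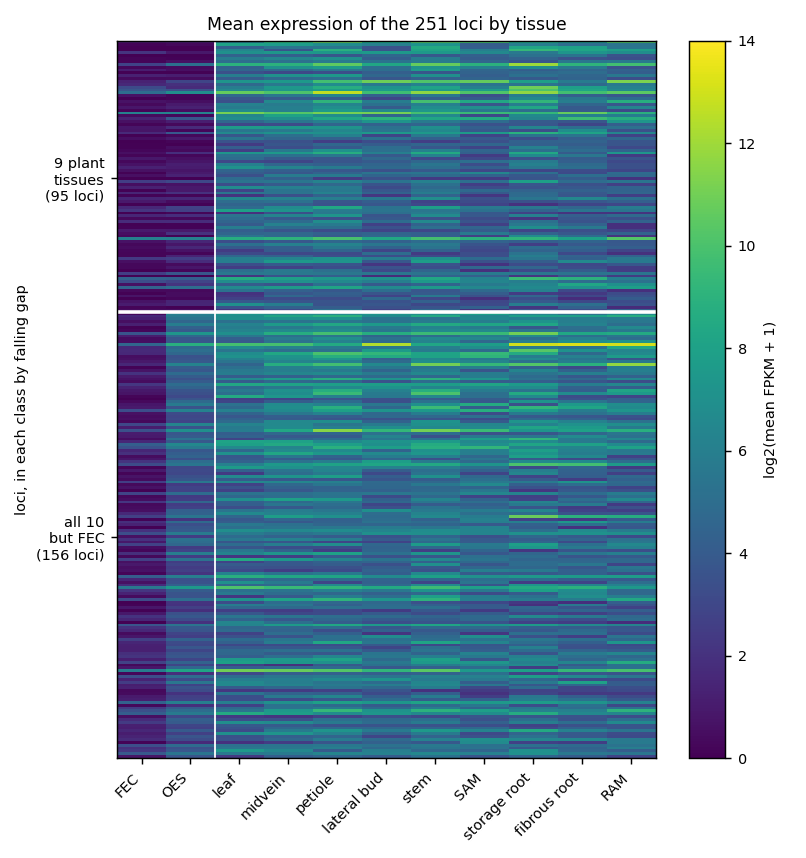
Mean FPKM of the 251 loci in each tissue on the scale of log2(mean FPKM + 1), ordered within each class by falling gap. The 95 upper loci are dark in FEC and OES, with medians of 0.467 and 0.773 FPKM, and the 156 lower loci are dark in FEC (median 1.22 FPKM) and intermediate in OES (median 12.7 FPKM).

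**Figure D3:**
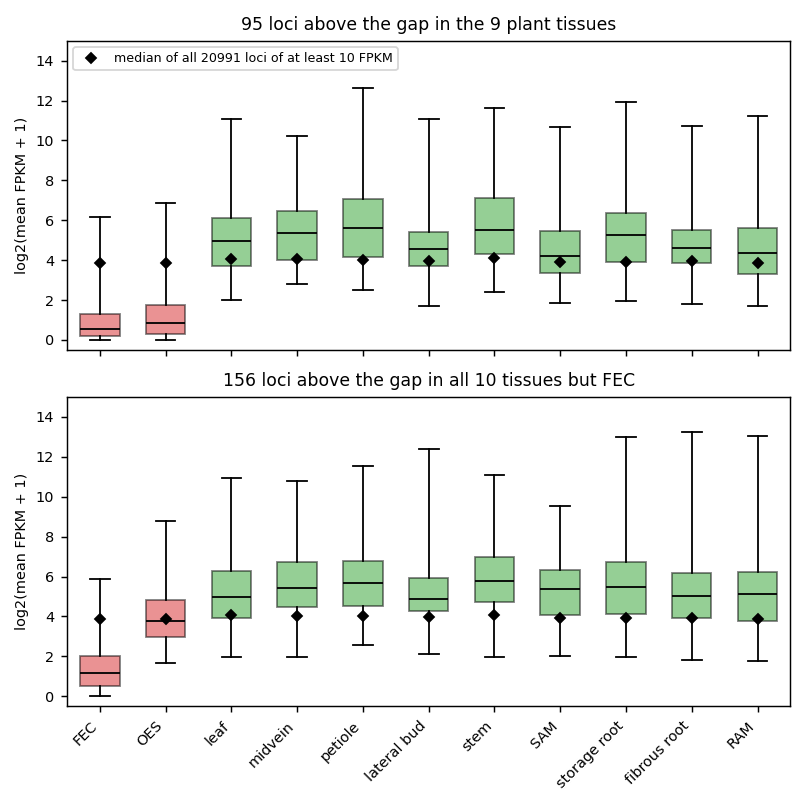
Distribution over loci of log2(mean FPKM + 1) in each tissue for both classes, where boxes give the quartiles, the line the median, whiskers the full range and diamonds the median of all 20991 loci of at least 10 FPKM. OES lies near FEC for the 95 loci and near the median of all loci for the 156.

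Single libraries showed the same separation as the means. All FEC and OES libraries lay below every plant library in 87 of the 95 loci, a pattern found in 3.14% of the 20991 loci. All FEC libraries lay below every OES and plant library in 149 of the 156 loci, beside 6.22% of the 20991 loci. These shares follow from the way the loci were chosen and are descriptions. To read replicates that had taken no part in the choice, the rule was applied to the libraries of 2 replicate numbers and the libraries of the remaining number were then examined. With replicate 1, 2 or 3 held out, 97.8%, 96.3% and 92.2% of the 91, 81 and 103 loci chosen for the 9 plant tissues had both held-out cultures below all held-out plant libraries. Over all loci of at least 10 FPKM the same order occurred in 7.48%, 7.65% and 10.2%. Storage root has no replicate 3, so the third split had 8 plant libraries rather than 9, an easier order to meet. For the class with only FEC below the gap, 98.7%, 96.0% and 98.7% of 149, 151 and 157 loci kept FEC lowest, beside 12.3% to 15.7% of all loci. The study calls its replicates biological. Neither its methods nor the labels say whether they came from separate plants or cultures. This repeat, like the p-values below, thus measures only the spread between these samples.

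Names and functions come from the annotation column of the study's lists of differentially expressed genes, which covers 4849 of the 32732 named loci (14.8%). It names 126 of the 251 loci, 112 of the 156 and 14 of the 95. Of the named loci, 108 of the 156 and 7 of the 95 stand in the study's list for OES and FEC, so annotation itself was tied to the contrast that separates the classes. The 4849 annotated loci pool this list with those of other comparisons. Shares of a gene list among annotated members and among all annotated loci thus come from unlike pools, and enrichment was not tested. The functions below describe the annotated loci, and the other 125 have an identifier only. Beyond the loci that the rule for names picked, 25 members, mostly further copies of a family or further annotated loci, were added after their values were seen. Coordinates are those of the study's locus column on the AM560-2 v6.1 assembly, and the sources used here do not say whether its starts are counted from 0 or 1.

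Regulators of transcription were the largest gene list among the annotated members. Annotation covers far more of the 156 loci than of the 95, so counts of annotated loci do not rank the classes. By words in the annotation, 27 of 470 annotated loci of the transcription factor list belonged to the set, 5 among the 95 loci and 22 among the 156, which is 21.4% of the annotated members beside 9.69% of all annotated loci. A zinc finger of the RING type (Manes.07G098900) and a MYND-type zinc finger protein (Manes.06G119500) were caught by the words, although such domains bind proteins rather than DNA. The widest gap of the whole set, 5.06 on the log2 scale, belonged to Manes.18G059200 (chromosome 18, 5142714 to 5149824), annotated as a K-box and MADS-box protein. MADS-box proteins are DNA-binding regulators known in plants for setting meristem and floral organ identity and flowering time. This locus had 0.110, 0.318 and 0.292 FPKM in FEC, 72.4, 70.1 and 67.1 FPKM in OES and between 33.2 and 240.4 FPKM (median 117) in the plant libraries. Its FEC libraries held 2, 6 and 9 fragments, and the OES libraries lay inside the plant range. Manes.02G030100 (chromosome 2, 2268904 to 2276791), annotated as AGAMOUS-like 19, a promoter of flowering in Arabidopsis, had 0.0946, 0.0923 and 0.0434 FPKM in FEC, 19.9, 17.8 and 20.5 FPKM in OES and between 10.7 and 104 FPKM (median 55.5) in the plant libraries. Only 1 fragment was counted in each FEC library, and its lowest plant tissue, storage root, averaged 13.01 FPKM, below OES. Manes.10G099000 (chromosome 10, 20029941 to 20043893), another K-box and MADS-box locus, had 0.269, 0.0953 and 0.175 FPKM in FEC, 14.5, 12.5 and 14.3 FPKM in OES and between 28.3 and 110.1 FPKM (median 79.7) in the plant libraries, so that OES lay below every plant library. The fourth MADS-box member, Manes.02G145300, was added to complete the family after its values were seen, and it had 0, 0.0584 and 0.107 FPKM in FEC, 12.3, 10.5 and 14.8 FPKM in OES and between 2.21 and 74.7 FPKM (median 40.0) in the plant libraries. In this locus OES exceeded fibrous root, with means of 12.6 and 3.11 FPKM.

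Other loci of the MADS-box family had other profiles. The annotation holds 23 loci named as MADS-box or AGAMOUS-like, of which these 4 met the rule. Some of the others were highest in FEC: Manes.07G039300, annotated as AGAMOUS-like 62, averaged 30.7 FPKM in FEC, 0.985 FPKM in OES and at most 0.0863 FPKM in a plant tissue. Manes.12G009200 averaged 15.2 FPKM in FEC, 0.167 FPKM in OES and at most 0.137 FPKM in a plant tissue. Both were singled out after their values were seen. The family thus held loci that were low in FEC and loci whose highest mean among the 11 tissues was in FEC.

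**Figure D4:**
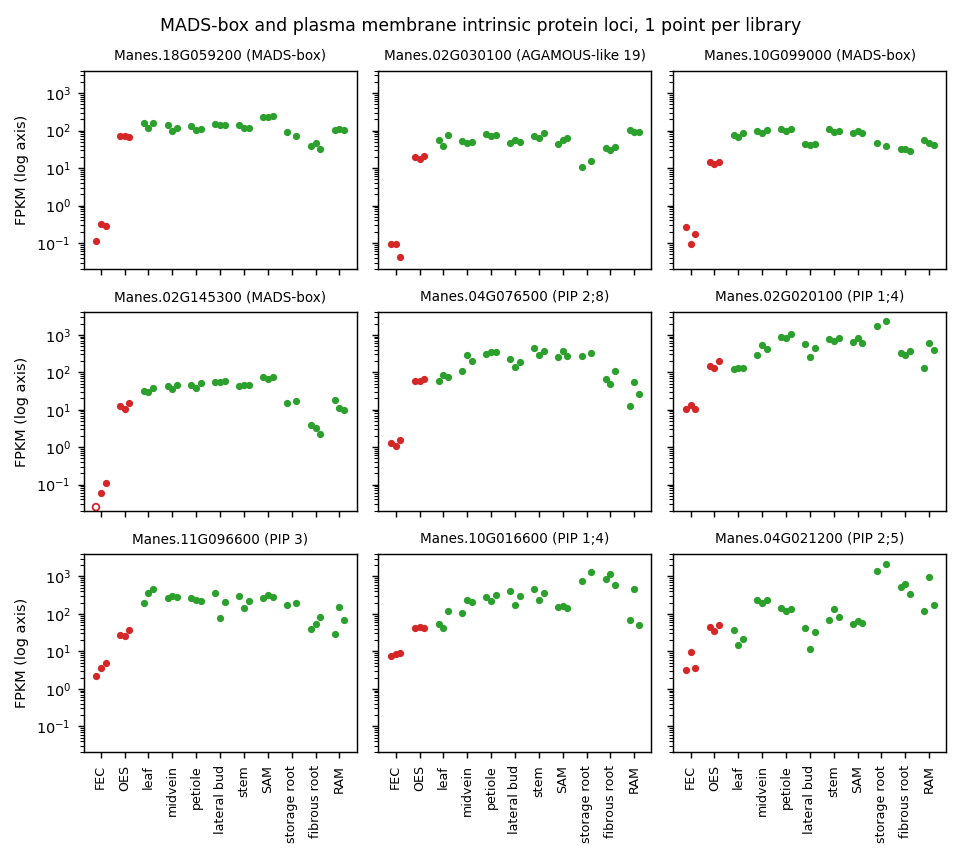
FPKM in each library, on a log axis, of the 4 MADS-box and 5 plasma membrane intrinsic protein (PIP) loci of the set, with cultures in red and plant tissues in green. An open circle at the foot marks a library at 0. The FEC points of the MADS-box loci lie at or below 0.318 FPKM, whereas those of the PIP loci range from 1.06 to 13.3 FPKM.

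Other regulators with wide gaps belonged to several families. Manes.12G110600 (chromosome 12, 25604830 to 25606439) is annotated as LOB domain-containing protein 37, which in Arabidopsis represses anthocyanin and nitrogen-response genes, and had 1.62, 0.669 and 2.06 FPKM in FEC, 42.8, 47.5 and 37.7 FPKM in OES and between 25.9 and 168 FPKM (median 71.2) in the plant libraries. The second locus with this annotation, Manes.13G113000, had 6.07, 3.94 and 5.25 FPKM in FEC, 44.7, 49.6 and 42.2 FPKM in OES and between 16.4 and 166 FPKM (median 57.4) in the plant libraries, so both annotated copies met the rule, with FEC levels of 1.45 and 5.09 FPKM. A basic helix-loop-helix locus, Manes.16G113000 (chromosome 16, 26865708 to 26869089), had 0.657, 0.374 and 0.474 FPKM in FEC, 25.2, 22.5 and 23.5 FPKM in OES and between 25.6 and 174 FPKM (median 45.3) in the plant libraries. Its OES libraries fell just under the plant range and its FEC libraries far under it. RGA-like 1 (Manes.02G075900, chromosome 2, 5599092 to 5602535), a DELLA protein that restrains gibberellin responses, had 1.62, 1.10 and 0.872 FPKM in FEC, 21.8, 24.9 and 26.3 FPKM in OES and between 15.1 and 112 FPKM (median 37.4) in the plant libraries. A further GRAS family locus, Manes.15G130800, had 3.10, 3.75 and 2.36 FPKM in FEC, 27.2, 30.4 and 28.9 FPKM in OES and between 36.1 and 118 FPKM (median 59.3) in the plant libraries. All 3 loci annotated as zinc finger protein 4 met the rule, with FEC means of 0.392, 0.359 and 0.485 FPKM, OES means of 15.47, 6.99 and 4.57 FPKM, and plant means of 17.5, 19.04 and 18.6 FPKM (Manes.01G121500, Manes.17G086600 and Manes.02G079300). Homeobox protein 16, a leucine-zipper homeodomain regulator, had 2 of its 3 annotated loci in the set, 1 in each class. Manes.12G129800, with both cultures below the gap, had 2.39, 2.90 and 1.23 FPKM in FEC, 12.3, 12.3 and 16.3 FPKM in OES and between 30.8 and 535 FPKM (median 153) in the plant libraries, and Manes.13G096900 had 0.866, 1.71 and 0.794 FPKM in FEC, 10.6, 11.3 and 9.88 FPKM in OES and between 21.1 and 322 FPKM (median 85.8) in the plant libraries. Homeobox protein 2 (Manes.01G084500), known for shade responses in Arabidopsis, was among the 5 loci where OES exceeded the median plant tissue: it had 1.02, 0.715 and 0.768 FPKM in FEC, 26.4, 31.1 and 34.6 FPKM in OES and between 0.523 and 55.5 FPKM (median 9.63) in the plant libraries, and FEC overlapped the plant range. The 2 GATA loci of the set were Manes.09G142600, with means of 1.56 FPKM in FEC and 21.0 FPKM in OES, and Manes.18G047000, with 1.27 and 6.35 FPKM.

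Among the 95 loci with both cultures below the gap, the 4 annotated regulators other than Manes.12G129800 stayed below 4 FPKM in every culture library. MYB domain protein 4 (Manes.11G094800), a repressor of phenylpropanoid genes in Arabidopsis, had 0.452, 0.544 and 0.2001 FPKM in FEC, 2.04, 1.94 and 1.74 FPKM in OES and between 8.40 and 57.8 FPKM (median 21.9) in the plant libraries. A Dof zinc finger locus, Manes.17G047300, had 0.487, 0.0479 and 0.867 FPKM in FEC, 3.54, 2.98 and 2.56 FPKM in OES and between 11.3 and 56.0 FPKM (median 21.5) in the plant libraries. The TCP family locus Manes.10G120400, from a family of regulators of organ growth, had 0.183, 0.0746 and 0.168 FPKM in FEC, 0.0292, 0 and 0.107 FPKM in OES and between 0.927 and 24.7 FPKM (median 13.6) in the plant libraries. An AP2-type (Integrase-type) locus, Manes.03G058500, had 0.161, 0.154 and 0.0948 FPKM in FEC, 0.226, 0.0883 and 0.167 FPKM in OES and between 0.227 and 49.8 FPKM (median 7.77) in the plant libraries, so that its lowest plant library lay just above the highest OES library.

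Aquaporins of the plasma membrane formed the largest group of transporters. Plasma membrane intrinsic proteins (PIPs) are channels that pass water across the cell membrane, and 5 of the 10 annotated PIP loci met the rule, all of them among the 156. PIP 2;8 (Manes.04G076500, chromosome 4, 21375865 to 21377517) had 1.30, 1.06 and 1.58 FPKM in FEC, 59.4, 56.7 and 67.2 FPKM in OES and between 12.5 and 432 FPKM (median 209) in the plant libraries. The OES level exceeded that of RAM, whose libraries had 12.5, 56.2 and 27.1 FPKM. PIP 1;4 had 2 loci in the set: Manes.02G020100 (chromosome 2, 1624223 to 1626227) had 10.6, 13.3 and 10.6 FPKM in FEC, 143, 131 and 195 FPKM in OES and between 119 and 2341 FPKM (median 560.2) in the plant libraries, and Manes.10G016600 (chromosome 10, 1312628 to 1314244) had 7.46, 8.65 and 9.03 FPKM in FEC, 41.6, 43.7 and 42.7 FPKM in OES and between 42.5 and 1313 FPKM (median 233) in the plant libraries. PIP 3 (Manes.11G096600) had 2.23, 3.52 and 4.96 FPKM in FEC, 26.9, 26.1 and 38.0 FPKM in OES and between 29.3 and 452 FPKM (median 223) in the plant libraries. PIP 2;5 (Manes.04G021200) had 3.12, 9.35 and 3.59 FPKM in FEC, 43.8, 34.4 and 50.01 FPKM in OES and between 11.4 and 2197 FPKM (median 127) in the plant libraries, where leaf and lateral bud libraries overlapped those of OES. These loci were low but not silent in FEC, with means from 1.32 to 11.5 FPKM. Of the 5 PIP loci outside the set, Manes.01G059600 averaged 5.20 FPKM in FEC, 23.9 FPKM in OES and between 12.9 and 262 FPKM in plant tissues, and Manes.09G068800 averaged 26.5 FPKM in FEC, 3.05 FPKM in OES and between 5.06 and 371 FPKM in plant tissues. At Manes.09G068800 FEC thus exceeded OES, opposite to the 5 members. The list of membrane transport, channels included, had 9 of its 236 annotated loci in the set (7.14% of annotated members, beside 4.87% of all annotated loci). Of these, the cyclic nucleotide-gated cation channel 4 (Manes.15G082700) had 0.656, 0.271 and 0.566 FPKM in FEC, 19.8, 22.5 and 14.2 FPKM in OES and between 2.23 and 145 FPKM (median 46.5) in the plant libraries. An ABC-2 type transporter locus (Manes.06G154000) was the only list member with both cultures below the gap, and it had 0.0351, 0.0336 and 0.0619 FPKM in FEC, 1.17, 0.359 and 1.60 FPKM in OES and between 7.39 and 99.5 FPKM (median 28.9) in the plant libraries.

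Loci of the cell wall and hormone lists were fewer in number. Cell wall loci still made up 4.76% of annotated members, beside 2.68% of all annotated loci, and auxin loci 0.794%, beside 1.48%. The lists rest on words in the annotation, so the hormone lists leave out phytochrome-associated protein 2, RGA-like 1 and Walls Are Thin 1. The widest gap among enzymes was at the locus of Manes.13G102400 and Manes.13G102500 (chromosome 13, 22327821 to 22337834), annotated as cinnamyl alcohol dehydrogenase 6, from the enzyme family that makes the alcohol precursors of lignin. It had 1.85, 2.14 and 2.202 FPKM in FEC, 59.9, 55.3 and 55.9 FPKM in OES and between 73.8 and 498 FPKM (median 249) in the plant libraries. The values belong to both genes together, as in 15 loci of the set that span several genes. The cell wall list had 6 of 130 annotated loci in the set, among them arabinogalactan protein 20 (locus of Manes.02G013300 and Manes.02G013400), with means of 10.5 FPKM in FEC, 56.0 FPKM in OES and 259 FPKM over plant tissues. The pectin lyase-like loci had FEC means of 0.641 FPKM (Manes.15G048700) and 0.414 FPKM (Manes.05G031300), with OES means of 9.67 and 4.40 FPKM. Walls Are Thin 1 (Manes.05G153500), a vacuolar auxin transporter required for secondary walls in Arabidopsis, had 0.382, 1.79 and 0.269 FPKM in FEC, 56.9, 73.6 and 29.2 FPKM in OES and between 8.81 and 419.9 FPKM (median 95.5) in the plant libraries. Its gene also lies on another locus of the table, as do those of 17 members in all, so its fragments may be divided between loci. Ethylene-forming enzyme (Manes.12G069300), which carries out the last step of ethylene synthesis, had 0.205, 0.788 and 0.332 FPKM in FEC, 10.7, 10.1 and 17.1 FPKM in OES and between 8.05 and 186 FPKM (median 55.7) in the plant libraries, and an ethylene-responsive element binding protein (Manes.15G009900) had 1.96, 2.77 and 1.82 FPKM in FEC, 30.1, 32.7 and 37.8 FPKM in OES and between 23.8 and 1664 FPKM (median 47.1) in the plant libraries. An AUX/IAA locus of 2 genes (Manes.11G051200 and Manes.11G051300), from the family of auxin-response repressors, was the single locus of 72 on the auxin list, with means of 5.71 FPKM in FEC, 24.7 FPKM in OES and 94.4 FPKM over plant tissues. Both annotated loci of plasmodesmata callose-binding protein 3, which acts at the channels between cells, were members, and they kept FEC means of 8.95 FPKM (Manes.01G028300) and 6.25 FPKM (Manes.05G110700).

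The light and clock list had 6 of 65 annotated loci in the set, but 1 of them, the GDSL lipase Manes.09G057000, matched only because the letters LHY occur in the word acylhydrolase. Without such matches 5 of 49 loci remained (3.97% of annotated members, beside 1.01% of all annotated loci). CONSTANS-like 4 (Manes.03G006000), of a family of B-box regulators tied to day length, had 0.0955, 0.229 and 0.113 FPKM in FEC, 6.82, 5.99 and 8.15 FPKM in OES and between 2.33 and 204 FPKM (median 62.8) in the plant libraries. Cryptochrome 1 (Manes.02G152400), a blue-light receptor, had 2.06, 1.78 and 2.19 FPKM in FEC, 19.8, 22.1 and 19.01 FPKM in OES and between 6.79 and 115 FPKM (median 40.4) in the plant libraries. Phytochrome-associated protein 2 (Manes.11G036800), an Aux/IAA protein in Arabidopsis, had 0.934, 1.01 and 0.800 FPKM in FEC, 15.1, 12.3 and 15.2 FPKM in OES and between 24.2 and 128 FPKM (median 61.7) in the plant libraries, and its OES libraries lay below every plant library. The 2 loci of the Phototropic-responsive NPH3 family were Manes.12G022400, with means of 0.602 FPKM in FEC and 5.93 FPKM in OES, and Manes.15G115100, with 0.156 and 1.65 FPKM. None of the 74 loci of the chloroplast list met the rule. Summed over 23 annotated photosystem loci, the libraries had 61.6 to 78.0 FPKM in FEC, 190 to 213 FPKM in OES, 42772 to 52267 FPKM in leaf, but 27.8 to 47.4 FPKM in RAM, so that these loci were low in a plant tissue as well. Summed levels of 8 embryogenesis loci ran the other way, with 484 to 590 FPKM in FEC, 109 to 125 FPKM in OES and 4.34 to 31.7 FPKM in the plant libraries. Not all of the 8 were expressed in culture: 2 averaged under 1 FPKM in FEC and 2 in OES, beside 3 to 7 in a plant tissue. Summed over 5 loci named for the shoot meristem, FEC libraries had 10.9 to 16.8 FPKM, OES libraries 37.6 to 41.7 FPKM, SAM libraries 249 to 255 FPKM, storage root libraries 240 to 296 FPKM and RAM libraries 19.6 to 26.2 FPKM, so that RAM lay below OES. The 9 laccase loci, markers of lignified vessels, summed to 0.996 to 1.68 FPKM in FEC, 1.57 to 2.71 FPKM in OES, 111 to 159 FPKM in fibrous root and 1.66 to 7.502 FPKM in leaf, which overlapped both cultures. Manes.09G108300 (Pt2L4), known for expression in storage root and stem, had 13.997 to 48.0 FPKM in FEC, between 589.8 and 798 FPKM in OES, 9975 to 11756 FPKM in storage root, 2208 to 4416 FPKM in stem and 1.25 to 3.03 FPKM in leaf, below FEC. The words fixed for root markers matched no annotated locus. The part of tissue composition in the levels of the 251 loci was not tested. Kinases and phosphatases gave 9 of 395 annotated loci, 7.14% of annotated members beside 8.15% of all annotated loci. Cytochrome P450s and glycosyltransferases gave 2 of 146 (1.59% beside 3.01%) and defence and stress 1 of 108 (0.794% beside 2.23%). Other hormones gave 2 of 46 (1.59% beside 0.949%), whereas the chromatin list (20 loci) and the cyanogenesis list (11 loci) gave 0. NSP-interacting kinase 3 (Manes.12G025900), a receptor kinase of a family that acts in antiviral defence in Arabidopsis, had 1.19, 0.399 and 1.37 FPKM in FEC, 15.55, 15.4 and 17.1 FPKM in OES and between 11.1 and 58.8 FPKM (median 23.1) in the plant libraries.

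Most of the 95 loci with both cultures below the gap carry no annotation here, and these held the widest gaps. Manes.14G116200, with a gap of 4.86, had 1.53, 0.938 and 0.671 FPKM in FEC, 2.10, 0.634 and 0.879 FPKM in OES and between 37.4 and 1899 FPKM (median 523) in the plant libraries. Petiole libraries were highest, with 1899, 1420.1 and 1462 FPKM, and leaf lowest, with a mean of 63.1 FPKM. Manes.08G154500 had 2.58, 3.22 and 4.18 FPKM in FEC, 0.937, 0.635 and 1.05 FPKM in OES and between 29.0 and 274 FPKM (median 155) in the plant libraries, and here FEC exceeded OES. Manes.01G094900 had 0, 0.195 and 0.0596 FPKM in FEC, 0.454, 0.227 and 0.0843 FPKM in OES and between 10.7 and 300.1 FPKM (median 82.4) in the plant libraries. Manes.04G140300 had 0, 0 and 0.0313 FPKM in FEC, from 2 fragments in all, 0.120, 0 and 0.0220 FPKM in OES and between 5.75 and 45.2 FPKM (median 18.9) in the plant libraries. Manes.15G075500 had 0.0683, 0.130 and 0.2002 FPKM in FEC, 0.342, 0.409 and 0.868 FPKM in OES and between 11.9 and 68.2 FPKM (median 38.7) in the plant libraries. Cultures and plant libraries did not overlap in any of these 5 loci. Manes.05G202900 was abundant, with 6.38, 2.16 and 9.91 FPKM in FEC, 15.6, 74.6 and 16.5 FPKM in OES and between 124 and 4800.3 FPKM (median 753) in the plant libraries, and OES replicate 2 stood far above the other OES libraries. Without that library its gap widened to 4.23, and without lateral bud replicate 2 it narrowed to 2.51, beside 3.13 with all libraries.

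Further loci with high plant levels differed in how far they were measured in culture. Low-molecular-weight cysteine-rich 69 (Manes.18G077800), a small protein of the plant defensin family in Arabidopsis, had 2.67, 0.669 and 1.22 FPKM in FEC, 7.94, 2.99 and 8.59 FPKM in OES and between 25.6 and 3582 FPKM (median 575) in the plant libraries. The other locus of that name, Manes.02G163900, belonged to the class low in FEC alone and had 0.938, 0.780 and 1.33 FPKM in FEC, 8.14, 6.68 and 17.9 FPKM in OES and between 5.69 and 932 FPKM (median 141) in the plant libraries. Manes.15G182400 had 64.4, 84.0 and 62.5 FPKM in FEC, 58.6, 70.8 and 72.3 FPKM in OES and between 216 and 1494 FPKM (median 521) in the plant libraries, so its cultures remained above 50 FPKM while every plant library was higher. An aspartyl protease locus (Manes.04G158400) had 0.598, 0.357 and 0.395 FPKM in FEC, 10.7, 9.58 and 11.7 FPKM in OES and between 56.0 and 677 FPKM (median 228) in the plant libraries. A peroxidase locus (Manes.02G182500), of the family of enzymes that act on cell walls and phenolic compounds, had 2.02, 1.18 and 1.46 FPKM in FEC, 12.2, 12.4 and 12.5 FPKM in OES and between 66.7 and 1025 FPKM (median 289.8) in the plant libraries. An HSP20-like chaperone locus (Manes.10G020600) had 7.38, 3.63 and 12.3 FPKM in FEC, 1.76, 2.31 and 2.86 FPKM in OES and between 7.97 and 3317 FPKM (median 156) in the plant libraries, so that the highest FEC library overlapped the plant range. The secreted signalling peptides ralf-like 27 (Manes.01G102300) and ralf-like 32 (Manes.05G201700) had means of 0.153 and 1.43 FPKM in FEC, 0.418 and 0.909 FPKM in OES and 77.9 and 35.5 FPKM over the plant tissues. At ralf-like 27 no FEC library had more than 2 fragments and no OES library more than 4.

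At 2 loci no fragment was counted in any culture library, and these were also thinly covered in the plant. Manes.14G067500 had at most 10 fragments in a library and none in 8 of the 26 plant libraries, and Manes.09G113300 had at most 9.64 and none in 12. Their FPKM values reached 1021 and 921, while 1 fragment at either locus was worth between 25.6 and 255 FPKM, so their membership rests on few fragments. Counts of 0 in a culture library allow up to 3 fragments, and no fold change is given for them. Both loci lost their gap when medians replaced means. Most of the set was deeply covered: 242 loci had over 100 fragments in some library, and 227 had over 10 fragments in every plant library. In FEC, 37 loci had 3 or fewer fragments in each library.

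The rule's limit cut through a continuum. The members just inside it were Manes.08G020100, with a gap of 1.52 and means of 0.391 FPKM in FEC, 0.415 FPKM in OES and 3.05 FPKM in its lowest plant tissue, SAM, and Manes.15G124900, a DnaJ-domain chaperone, with a gap of 1.51 and means of 0.762 FPKM in FEC and 4.01 FPKM in leaf. Just outside lay Manes.13G073100, with 2.04 FPKM in FEC and 7.61 FPKM in lateral bud, and Manes.11G026200, with 0.249 FPKM in FEC, 0.309 FPKM in OES and 2.70 FPKM in SAM, both with gaps just under the limit.

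The loci were not evenly expressed among the plant tissues, and 17 of the 251 had a plant library below 1 FPKM. The highest plant tissue mean exceeded the lowest more than 4 times in 211 of the 251 loci, beside 65.9% of the 20991 loci of at least 10 FPKM. The median locus of the set differed 8.88 times between its highest and lowest plant tissue. Median levels over the set were 29.9 FPKM in leaf, 40.9 in midvein, 49.5 in petiole, 27.4 in lateral bud, 49.9 in stem, 27.8 in SAM, 39.4 in storage root, 27.7 in fibrous root and 25.8 in RAM. Petiole was the highest plant tissue at 50 loci (19.9%, beside 5.66% of all loci of at least 10 FPKM), and RAM at 16 loci (6.37%, beside 18.8%). Fibrous root was the lowest plant tissue at 42 loci (16.7%, beside 8.07%). The 95 loci had medians of 17.7 FPKM in SAM and 19.3 FPKM in RAM, the lowest of the plant tissues in that class, and the 156 loci 39.9 and 34.0 FPKM.

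Differences among plant tissues were examined by the quasi-likelihood test of edgeR, run on fragment counts. The rule did not select on these differences directly, but it required every plant tissue mean to stand above the gap. Loci near 0 in any plant tissue could thus not be members. The rule also kept plant tissues from being divided by a gap wider than the one that set the cultures apart. Both limits bear on how often, and in which direction, members can differ. The loci tested as background were not limited in this way, so shares of members beside them are descriptions. A locus was called where the adjusted p was below 0.05 and the mean FPKM differed more than 4 times.

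Leaf and fibrous root, the main photosynthetic organ and the organ of uptake, differed at 54 of the 251 loci, with 29 higher and 25 lower in leaf. Over all 24723 loci tested, 29.7% were called, 14.4% higher and 15.2% lower in leaf. The split depended on scaling: when each library's FPKM were made to sum to 1000000, 15 members (5.98%) were higher and 64 (25.5%) lower in leaf, beside 10.2% and 22.3% of all loci, while the median log2 ratio over all loci moved to -0.82 from -0.08. A locus of unknown function (Manes.06G083700) had 374, 373 and 366 FPKM in leaf, against 11.9, 6.92 and 7.31 FPKM in fibrous root (log2 fold change 4.96 ± 0.40 (SE), edgeR adjusted p = 4.1e-11). Pyrophosphorylase 4 (Manes.01G137500), annotated as an enzyme of pyrophosphate metabolism, had 87.1, 148 and 148 FPKM in leaf, against 5.67, 7.52 and 4.72 FPKM in fibrous root (log2 fold change 4.39 ± 0.36 (SE), edgeR adjusted p = 5.6e-11). CONSTANS-like 4 (Manes.03G006000) averaged 194 FPKM in leaf, against 21.8 FPKM in fibrous root (log2 fold change 3.16 ± 0.21 (SE), edgeR adjusted p = 1.0e-12), and cryptochrome 1 (Manes.02G152400) averaged 100.4 FPKM, against 10.8 FPKM (log2 fold change 3.13 ± 0.25 (SE), edgeR adjusted p = 2.7e-11). On the other side, the unannotated Manes.08G068400 had 16.6, 21.2 and 29.0 FPKM in leaf, against 438, 511 and 504 FPKM in fibrous root (log2 fold change -4.44 ± 0.39 (SE), edgeR adjusted p = 1.9e-10). The lowest log2 fold change was that of Manes.16G031700, with 1.39, 8.46 and 1.38 FPKM in leaf, against 94.4, 121 and 139 FPKM in fibrous root (log2 fold change -4.81 ± 0.58 (SE), edgeR adjusted p = 6.2e-08). PIP 2;5 (Manes.04G021200) had 36.7, 14.5 and 20.9 FPKM in leaf, against 538, 632 and 348 FPKM in fibrous root (log2 fold change -4.41 ± 0.62 (SE), edgeR adjusted p = 7.5e-07). The PIP loci did not move together in this comparison: 1 of the 5 was higher in leaf (PIP 3) and 2 were lower, but none was higher and 3 were lower after the rescaling. In none of the leaf and fibrous root values listed did the groups overlap.

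Storage root, which accumulates starch, and fibrous root differed at 39 of the 251 loci, 28 higher and 11 lower in storage root. Over the 23420 loci tested, 22.8% were called, 6.48% higher and 16.4% lower. Of the set, 11.2% were higher and 4.38% lower, with a median log2 fold change of 0.54 for the members and -0.06 for all loci. The background also held loci of lower level than the members. With 10 FPKM required in either root, 11.9% of members were higher and 4.66% lower, beside 7.68% and 10.2% of all loci. Median log2 ratios were then 0.59 for the members and 0.24 for all loci, both towards storage root. After the same rescaling the members' split turned to 14 higher and 28 lower, with a median log2 ratio of -0.09 for the members and -0.57 for all loci. The direction thus depended on scaling, while the members' median lay above that of all loci in each of these settings. This difference was not tested. Storage root had 2 libraries. Beta-6 tubulin (Manes.01G061400), a subunit of microtubules, had 294 and 385 FPKM in storage root, against 24.1, 10.5 and 11.0 FPKM in fibrous root (log2 fold change 4.50 ± 0.45 (SE), edgeR adjusted p = 1.1e-08). The ethylene-responsive element binding protein (Manes.15G009900) had 978 and 1664 FPKM in storage root, against 175, 158 and 84.2 FPKM in fibrous root (log2 fold change 3.30 ± 0.30 (SE), edgeR adjusted p = 2.1e-09). An oxidoreductase locus of 2 genes (Manes.15G139400,Manes.15G139500) had 412 and 350.4 FPKM in storage root, against 56.1, 8.49 and 15.4 FPKM in fibrous root (log2 fold change 3.83 ± 0.54 (SE), edgeR adjusted p = 1.8e-06), and the unannotated Manes.11G085000 had 246 and 378 FPKM, against 17.02, 10.2 and 17.5 FPKM (log2 fold change 4.43 ± 0.36 (SE), edgeR adjusted p = 3.8e-10). Among transporters, 4 of the 9 members were higher in storage root and 0 lower, and after the rescaling 1 was higher and 0 lower. At an unadjusted p below 0.05 in edgeR and without the fold limit, 7 of the 9 were higher and 0 lower, beside 30.1% higher and 33.2% lower of all loci tested, and DESeq2 and limma each called 4 higher and 0 lower. PIP 1;4 at Manes.02G020100 had 1697 and 2341 FPKM in storage root, against 322, 297 and 363 FPKM in fibrous root (log2 fold change 2.67 ± 0.38 (SE), edgeR adjusted p = 1.6e-06), a call that was lost on the rescaled values. Walls Are Thin 1 (Manes.05G153500) was lower, with 8.81 and 10.7 FPKM in storage root, against 183, 236 and 119 FPKM in fibrous root (log2 fold change -4.16 ± 0.51 (SE), edgeR adjusted p = 2.5e-07). The cytochrome P450 71B2 locus of 2 genes (Manes.14G059200,Manes.14G059400) averaged 2.91 FPKM in storage root, against 48.2 FPKM in fibrous root (log2 fold change -3.98 ± 0.41 (SE), edgeR adjusted p = 1.8e-08), and the peroxidase locus Manes.02G182500 80.0 FPKM, against 779.6 FPKM (log2 fold change -3.30 ± 0.39 (SE), edgeR adjusted p = 1.6e-07). The unannotated Manes.14G145000 averaged 9.21 FPKM in storage root, against 114 FPKM in fibrous root (log2 fold change -3.56 ± 0.64 (SE), edgeR adjusted p = 4.8e-05).

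SAM and RAM were compared with the 7 other plant tissues. In comparisons of several tissues the log2 fold change averages log levels over tissues, so it can differ from the ratio of the mean FPKM printed beside it. Of the 251 loci, 27 were called, 1 higher and 26 lower in the meristems, and of these 15 lower calls fell in the class of 95. Over the 25373 loci tested 15.7% were called, 6.01% higher and 9.74% lower, and of the set 0.398% were higher and 10.4% lower. Heat shock transcription factor B4 (Manes.18G038600), which in Arabidopsis acts in the root stem cell niche, was the member that was higher. It had 100.5, 120.2 and 105 FPKM in SAM and 71.1, 44.5 and 42.1 FPKM in RAM, against a mean of 8.98 FPKM over the other tissues (log2 fold change 3.43 ± 0.16 (SE), edgeR adjusted p = 3.0e-15). The lowest ratios belonged to unannotated loci: Manes.07G015600 averaged 4.43 FPKM in meristems, against 49.1 FPKM elsewhere (log2 fold change -3.16 ± 0.27 (SE), edgeR adjusted p = 1.4e-10), and Manes.01G120400 averaged 4.32 FPKM, against 37.8 FPKM (log2 fold change -2.60 ± 0.28 (SE), edgeR adjusted p = 9.2e-09). A methyltransferase locus (Manes.03G114800) averaged 7.98 FPKM in meristems, against 66.5 FPKM elsewhere (log2 fold change -2.47 ± 0.21 (SE), edgeR adjusted p = 1.1e-10). Another RNA kit and less fragmentation went with the meristem libraries, and their part in these calls cannot be told apart from the tissue.

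Aerial and subterranean tissues, 6 against 3, differed at 18 of the 251 loci, 12 higher and 6 lower in aerial tissues, beside 15% of the 25444 loci tested (9.7% higher and 5.33% lower). Of the set, 4.78% were higher and 2.39% lower, and these shares were not tested against the background. CONSTANS-like 4 (Manes.03G006000) averaged 96.7 FPKM in aerial tissues, against 11.3 FPKM in subterranean ones (log2 fold change 3.22 ± 0.13 (SE), edgeR adjusted p = 2.7e-17). The pectin lyase-like locus Manes.15G048700 averaged 108 FPKM, against 16.4 FPKM (log2 fold change 2.44 ± 0.24 (SE), edgeR adjusted p = 1.1e-09), and the MADS-box locus Manes.02G145300 48.7 FPKM, against 10.8 FPKM (log2 fold change 2.43 ± 0.13 (SE), edgeR adjusted p = 5.4e-15). PIP 2;5 (Manes.04G021200) was lower in aerial tissues, with means of 93.5 FPKM, against 909.6 FPKM in subterranean tissues (log2 fold change -3.37 ± 0.27 (SE), edgeR adjusted p = 2.3e-11), as was the ethylene-responsive element binding protein (Manes.15G009900), with 64.3 FPKM, against 514 FPKM (log2 fold change -2.34 ± 0.13 (SE), edgeR adjusted p = 2.6e-14). At Manes.15G009900 storage root stood far above fibrous root, so the subterranean mean leans on storage root.

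**Figure D5:**
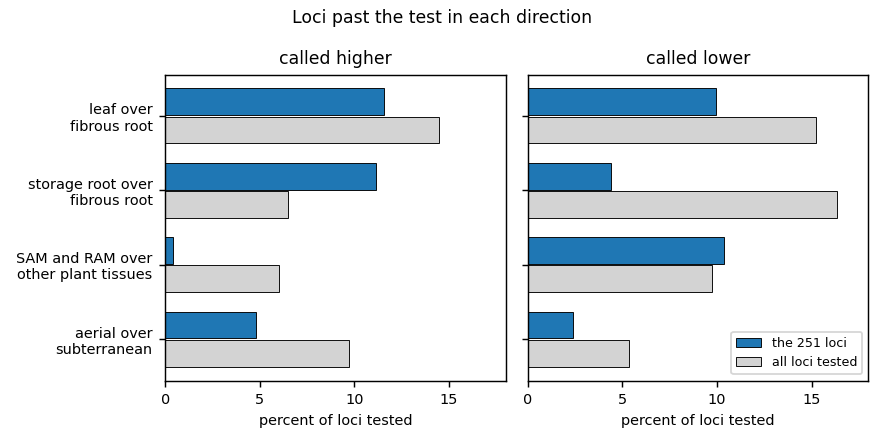
Percent of loci called higher (left) and lower (right) in the first-named tissue of 4 comparisons, for the 251 loci and for all loci tested. In storage root over fibrous root 11.2% of the set was called higher and 4.38% lower, against 6.48% and 16.4% of all loci. With 10 FPKM required in either root, the shares were 11.9% and 4.66% of the set, against 7.68% and 10.2% of all loci. The rule limited the plant tissue values of the 251 loci and not those of all loci.

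FEC and OES were set side by side only for the class in which neither stood above the gap. The rule used both culture means and kept them low, so the counts and fold changes of this comparison are descriptions. With no limit on FPKM, 14 of the 95 loci were lower and 0 higher in FEC by edgeR, beside 12.5% of the 30846 loci (6.22% higher and 6.31% lower), and the median log2 ratio of the 95 was -0.15. With the limit of 1 FPKM in either culture 45 of the 95 entered, 26 of them in both cultures, 15 through OES alone and 4 through FEC alone, and a locus that entered through 1 culture had to differ. Of these 45, 10 were lower and 0 higher in FEC, beside 13% of the 22927 loci tested (6.16% higher and 6.89% lower), but 7 of the 10 had entered through OES alone, so the direction of the calls is not read as a result. At an unadjusted p below 0.05 in edgeR and without the fold limit, 19 of the 45 were lower and 2 higher, beside 25.2% lower and 27.4% higher of all loci tested. DESeq2 called 11 lower and 0 higher, and limma 9 lower and 0 higher, on the same chosen values. Without FEC replicate 1 or without OES replicate 3, 1 locus was called higher. The peroxidase locus (Manes.02G182500), which entered in both cultures, had 2.02, 1.18 and 1.46 FPKM in FEC, against 12.2, 12.4 and 12.5 FPKM in OES (log2 fold change -2.95), without overlap. Homeobox protein 16 at Manes.12G129800 also entered in both, with 2.39, 2.90 and 1.23 FPKM in FEC, against 12.3, 12.3 and 16.3 FPKM in OES (log2 fold change -2.64). The ABC-2 type transporter locus (Manes.06G154000), with means of 0.0435 FPKM in FEC and 1.04 FPKM in OES, and the NPH3 family locus Manes.15G115100, with 0.156 FPKM in FEC and 1.65 FPKM in OES, entered through OES alone, and their calls were lost under a fold limit on the log2(FPKM + 1) scale. Where 10 FPKM was required in either culture, 10 loci remained, of which 3 were lower and 0 higher in FEC. Over all loci, 5.03% were lower and 4.16% higher under this limit. A locus could again enter through 1 culture alone, so this direction is not read as a result either.

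The set was spread over the genome. Members were found on all 18 chromosomes, where they made up between 0.520% (chromosome 3, 11 of 2116 named loci) and 1.22% (chromosome 17, 15 of 1232) of the named loci, and 7 lay on unplaced sequence. In 14 cases the next member on the chromosome was within 5 gene numbers. Such runs included Manes.11G036500, phytochrome-associated protein 2 (Manes.11G036800) and Manes.11G037000, and Manes.13G114700, Manes.13G115000 and Manes.13G115100. These neighbours were picked for their position after the set was known. How many neighbours a random set of this size would hold was not worked out, so the count is not read as clustering. AGAMOUS-like 19 had Manes.02G030500 as a neighbour, and PIP 2;8 had Manes.04G076000.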

How the data were processed

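Polyadenylated RNA of 32 libraries from 11 tissues was sequenced in a single HiSeq lane. Trimming by the authors used Trimmomatic 0.32, alignment to AM560-2 v6.1 used TopHat2 2.0.10 (per the labels), and each replicate was quantified with Cufflinks, Cuffmerge and Cuffdiff 2.2.1. For every locus and library the authors deposited an estimated count of fragments, partly fractional, an FPKM value on library sizes scaled by Cuffdiff, and a scaled fragment signal. The deposited signal was not used, and the table holding the same FPKM values was not read. How fragments were divided between overlapping loci can change single values.

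Loci with a gene name were kept. Estimated counts were rounded to whole numbers and fitted with edgeR 4.0.16 (R 4.3.3, TMM, quasi-likelihood) over 27855 loci and all libraries with 11 tissue means, with a common biological coefficient of variation of 0.264 and TMM factors from 0.720 to 1.15. Loci averaging 1 FPKM or more on either side were tested and p-values adjusted by Benjamini-Hochberg over all of them. A call needed an adjusted p below 0.05 and a mean FPKM ratio above 4. The scripts were tested on simulated counts. The members, gene lists and comparisons were chosen with earlier results of these data known. Named loci were, by rule, the 10 widest gaps in each class, the 10 highest plant means without overlap of cultures and plant, the 3 called loci with the largest ratios per comparison and direction, up to 4 per gene list, those at the gap limit and those without culture fragments. This gave 67 members, and 25 were added. Alternatives were limma 3.58.1, DESeq2 1.42.0, other pseudocounts, filters, scalings, a replicate block and leaving out each library. Library depth was 4175114 to 24123487 fragments on named loci, and a count of 0 allows up to 3 fragments, for counting error only. Sequences are not analysed here.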

Additional observations from a re-analysis of the deposited data

How the results depend on the processing

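The number of loci meeting the rule depended on its settings: 575 with a pseudocount of 0.1, 74 with a pseudocount of 4 and 117 with a gap of at least 2, against 251 as reported. It was 176 on rescaled FPKM (167 of them members) and 233 with medians (208 of them members). Leaving out each library in turn gave 241 to 260 loci, with 241 without RAM replicate 2. Calls among members ranged over the left-out libraries from 53 to 61 for leaf over fibrous root, 36 to 46 for storage root over fibrous root, 23 to 35 for meristems (35 without RAM replicate 2), 17 to 21 for aerial tissues and 8 to 11 for FEC over OES. A fold limit on the log2(FPKM + 1) scale left 3 calls for FEC over OES and 16 for meristems (2 higher, 14 lower), and a limit of 10 FPKM left 3 for FEC over OES, of 10 members tested (45 as reported), beside 9.19% of all loci.

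Over all loci, the limit of 10 FPKM moved the calls to 4295 from 7338 for leaf over fibrous root, to 2620 from 5350 for storage root, to 1314 from 2991 for FEC over OES, to 2600 from 3995 for meristems and to 2310 from 3826 for aerial tissues, with fewer loci tested. The log2(FPKM + 1) limit gave 3285, 1558, 2092 and 1979 for storage root, FEC over OES, meristems and aerial tissues. The cause of the other shifts was not tested. Among named loci, 1785 of 1853 repeats of a call kept it, 68 lost it and 0 reversed.

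With the replicate number as a block the calls were 54, 39, 10, 27 and 18, in the order leaf, storage root, FEC, meristems and aerial tissues, as without the block. The mean correlation of deviations was 0.030 over 155 pairs with the same number, of which 16 exceeded 0.1, and -0.015 over 310 pairs with other numbers, of which 4 did. Pairs with the same number thus exceeded 0.1 more often than other pairs. The samples were not treated as paired in the main fit, and the block gave the same counts of calls among members. Depth limits the loci near 0 in FEC, where 37 members had 3 or fewer fragments in each library.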

Other observations

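Of the 5861 loci without a gene name, 23 met the rule as well. They were left out of the set and are not described further.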
